A study of Mus musculus with 14 samples.

Results

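The collagens, laminins and integrins are the structural proteins of the extracellular matrix and the main receptors by which cells hold on to it. Their genes were taken from the table of normalized counts by symbol: Col, digits, the letter a and digits for a collagen chain, Lama, Lamb or Lamc and a digit for a laminin chain, and Itga or Itgb and a digit for an integrin subunit. The rule found 76 genes of 24972 in the table, of which 44 were collagen, 11 laminin and 21 integrin genes. A further 4 genes start with the same letters but encode binding proteins (Col4a3bp, Itgb1bp1, Itgb1bp2 and Itgb3bp) and were left out.

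Collagens are trimers of alpha chains wound into a triple helix. The fibrillar types build tensile fibrils, type IV forms the sheet-like network of basement membranes, type VI forms beaded filaments, and the fibril-associated (FACIT) types sit on the surface of fibrils. Laminins are cross-shaped trimers of an alpha, a beta and a gamma chain that polymerize on the cell surface and start the assembly of a basement membrane. Integrins are pairs of an alpha and a beta subunit that span the plasma membrane, bind collagens, laminins, fibronectin or other ligands outside the cell and connect them to the actin cytoskeleton. In the liver, type IV collagen and laminins lie in the space next to the sinusoids and around bile ducts and vessels, and a scarred liver or liver tumour accumulates fibrillar collagens.

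The study removed ATP-citrate lyase (ACLY), which makes acetyl-CoA from citrate, and acyl-CoA synthetase short chain family member 2 (ACSS2), which makes it from acetate, from mouse hepatocellular carcinoma (HCC) cells. All cells came from tumours that diethylnitrosamine had induced in livers with floxed Acly alleles. Of the 14 libraries, 4 were WT (Acly f/f cells with an empty LentiCRISPR v2 vector), 4 were ACLY KO (a clonal population after Cre adenovirus, with the same empty vector), 3 were ACSS2 KO (a clone of Acly f/f cells edited by LentiCRISPR v2 with a guide to the first exon of Acss2) and 3 were DKO1 (a clone derived from ACLY KO cells and edited with that guide). All were grown for 24 hours in DMEM with 10% calf serum, and poly(A) RNA was sequenced. ACSS2 KO and DKO1 are each 1 clone and ACLY KO is a clonal population, so genotype and clone cannot be told apart. The sequencing was done on 1 experiment, so the p-values measure the spread between these libraries, which may be technical.

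The values are read counts divided by DESeq normalization factors, here called normalized counts, with totals of 23565700 to 26946200 per library and an implied depth of 19164100 to 33522200 reads. Acly had means of 6050 and 5684 normalized counts in WT and ACSS2 KO, and of 1001 and 946 in ACLY KO and DKO1. Acss2 had means of 237 and 132 in WT and ACSS2 KO, and of 718 and 535 in ACLY KO and DKO1, and its edited transcript was still present. The labelled cell type was visible in the keratins Krt8 and Krt18, while the defining hepatocyte genes Apoa1, Fga and Serpina1a were at or near 0 and Alb had means between 11.3 and 134. Of the other hepatocyte genes, Hnf4a had a mean of 172 in WT and 22.4 to 39.8 elsewhere, and Apob had means of 30.1 to 282. The biliary genes Krt19, Krt7 and Spp1 were high, with lowest means of 3993 or more, while Epcam of the same list had means of 3.05 to 19.7. In 1 library of each genotype (WT replicate 2, ACLY KO replicate 4, ACSS2 KO replicate 1 and DKO1 replicate 4), genes with long exons were low against the genotype mean, with a Spearman correlation of deviation and exon length across 12577 genes of -0.53, -0.51, -0.48 and -0.61. Tested collagen, laminin and integrin genes are long, with a median exon length of 7122 bases against 4457 for all genes tested. Values in DKO1 are therefore given with and without replicate 4 where that library changes a call or moves a called fold change by over 1.5 times; the part of exon length in any result was not tested beyond the correction given at the end.

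Of the 76 genes, 72 had a value above 0 in at least 1 library and 55 were above 0 in every library. The 4 genes at 0 in all libraries were the cartilage collagens Col9a1, Col9a2 and Col10a1 and the transmembrane collagen Col13a1. A mean of at least 10 normalized counts, the limit for testing, was reached by 52 genes: 26 collagen, 10 laminin and 16 integrin genes. Below it lay 14 collagen genes (Col2a1, Col6a4, Col6a5, Col6a6, Col8a1, Col8a2, Col11a1, Col19a1, Col20a1, Col23a1, Col24a1, Col25a1, Col26a1 and Col28a1), the laminin gene Lama2 and the integrin genes Itga4, Itga8, Itgb2l, Itgb7 and Itgb8, with means of at most 8.49. For 7 of the 52 tested genes, the mean of at least 1 genotype was under 10, so they passed through the genotypes in which they were high.

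Levels of different genes were compared as normalized counts per kilobase of exon. In WT cells, Itgb1, the beta subunit shared by most collagen, laminin and fibronectin receptors, had 11213 per kilobase, more than any other of the 76 genes. The basement membrane collagen chains Col4a1 and Col4a2 followed with 4718 and, after Itga3 at 3479, 2980.2 per kilobase. Next came the laminin chains Lama5 at 1611, Lamc1 at 1288 and Lamb2 at 1119 per kilobase. The most abundant fibrillar collagen was Col5a1 at 139 per kilobase, and type I collagen was uneven, with 65.3 for Col1a1 and 1.55 for Col1a2. Transcripts of basement membrane chains were thus abundant in WT and those of fibrillar collagens low. Collagen genes together held 0.296% ± 0.0461 (SD, n = 4) of all normalized counts in WT, and Col4a1 with Col4a2 held 71.8% of the collagen counts.

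**Figure D1:**
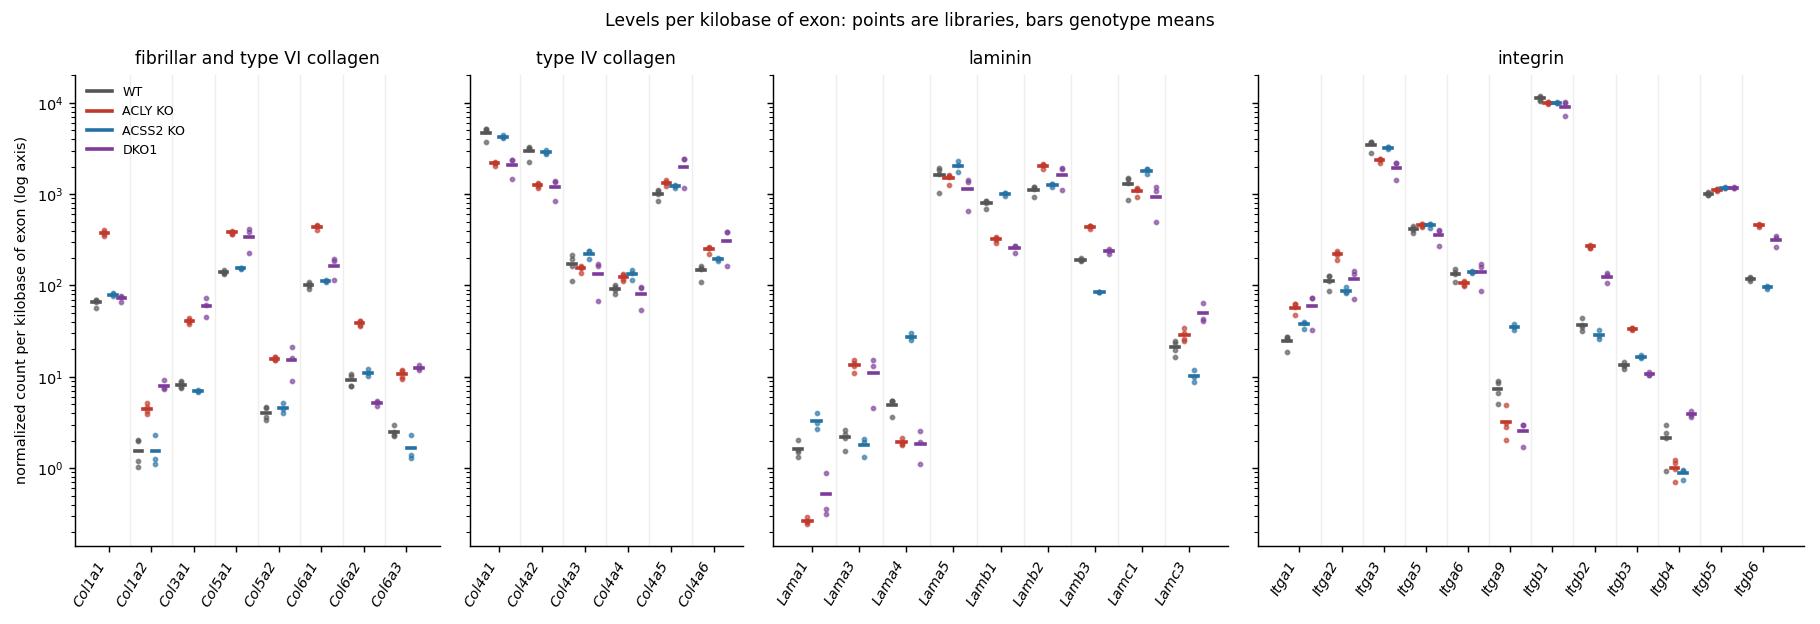
Levels of tested collagen, laminin and integrin genes as normalized counts per kilobase of exon on a log axis, for each genotype. Points are libraries and bars are genotype means; Itgb1, Col4a1 and Col4a2 stand high in every genotype, and the fibrillar collagens stand below Col4a1 and Col4a2.

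Loss of ACLY came with higher values of most of these genes. Against WT, ACLY KO cells had 31 of the 52 tested genes higher and 8 lower at an adjusted p under 0.05, where 23.8% of all 12711 genes tested were higher and 24.7% lower. The median log2 fold change was 0.82 over the 52 genes and -0.0067 over all genes. Collagens leaned most to one side, with 18 of 26 higher and 2 lower, integrins had 9 of 16 higher and 3 lower, and laminins had 4 of 10 higher and 3 lower. At larger limits, an absolute log2 fold change over 1.5 with adjusted p under 0.01, 16 of the 52 genes were called, where 8.8% of all genes were. The test was limma on log2(value + 1). Adjusted p-values are by the Benjamini-Hochberg method over all genes tested, and the added 1 makes the fold changes of low genes smaller.

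Loss of ACSS2 alone moved fewer of them. ACSS2 KO cells had 13 of 52 genes higher and 8 lower than WT, where 15.1% of all genes were higher and 11.0% lower, and 2 genes passed the larger limits, where 2.42% of all genes did. The split depended on the scaling: with equal library totals, which moved the median of all genes by 0.11 on the log2 scale, it was 16 higher and 4 lower, with quantile normalization 9 and 9, and with the exon length correction 15 and 5. Leaving out ACSS2 KO replicate 2 or replicate 4 lowered the 21 calls to 12 or 13 of the 52 genes (23.1 or 25.00%), and the share of all genes called fell as well, from 26.05% to 19.9 or 18.4%. Without ACSS2 KO replicate 1 or WT replicate 3 there were 15 calls.

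With both enzymes lost, DKO1 cells had 29 of 52 genes higher and 11 lower than WT, where 27.9% of all genes were higher and 28.1% lower. The median log2 fold change of the 52 genes was 0.59, and 0.81 without DKO1 replicate 4, which gave 31 higher and 11 lower. At the larger limits 13 genes passed, where 9.84% of all genes did. Against ACLY KO cells, from which they derive, DKO1 cells had 6 genes higher and 13 lower, where 14.3% of all genes were higher and 13.6% lower, and 5 genes passed the larger limits, where 2.06% of all genes did. Without DKO1 replicate 4 that comparison gave 9 higher and 12 lower, and the median moved from -0.23 to 0.019. Against ACSS2 KO cells, DKO1 cells had 23 genes higher and 15 lower, where 25.9% of all genes were higher and 27.8% lower, and 17 passed the larger limits, where 11.3% of all genes did. Comparisons that name the same genotype share its libraries.

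**Figure D2:**
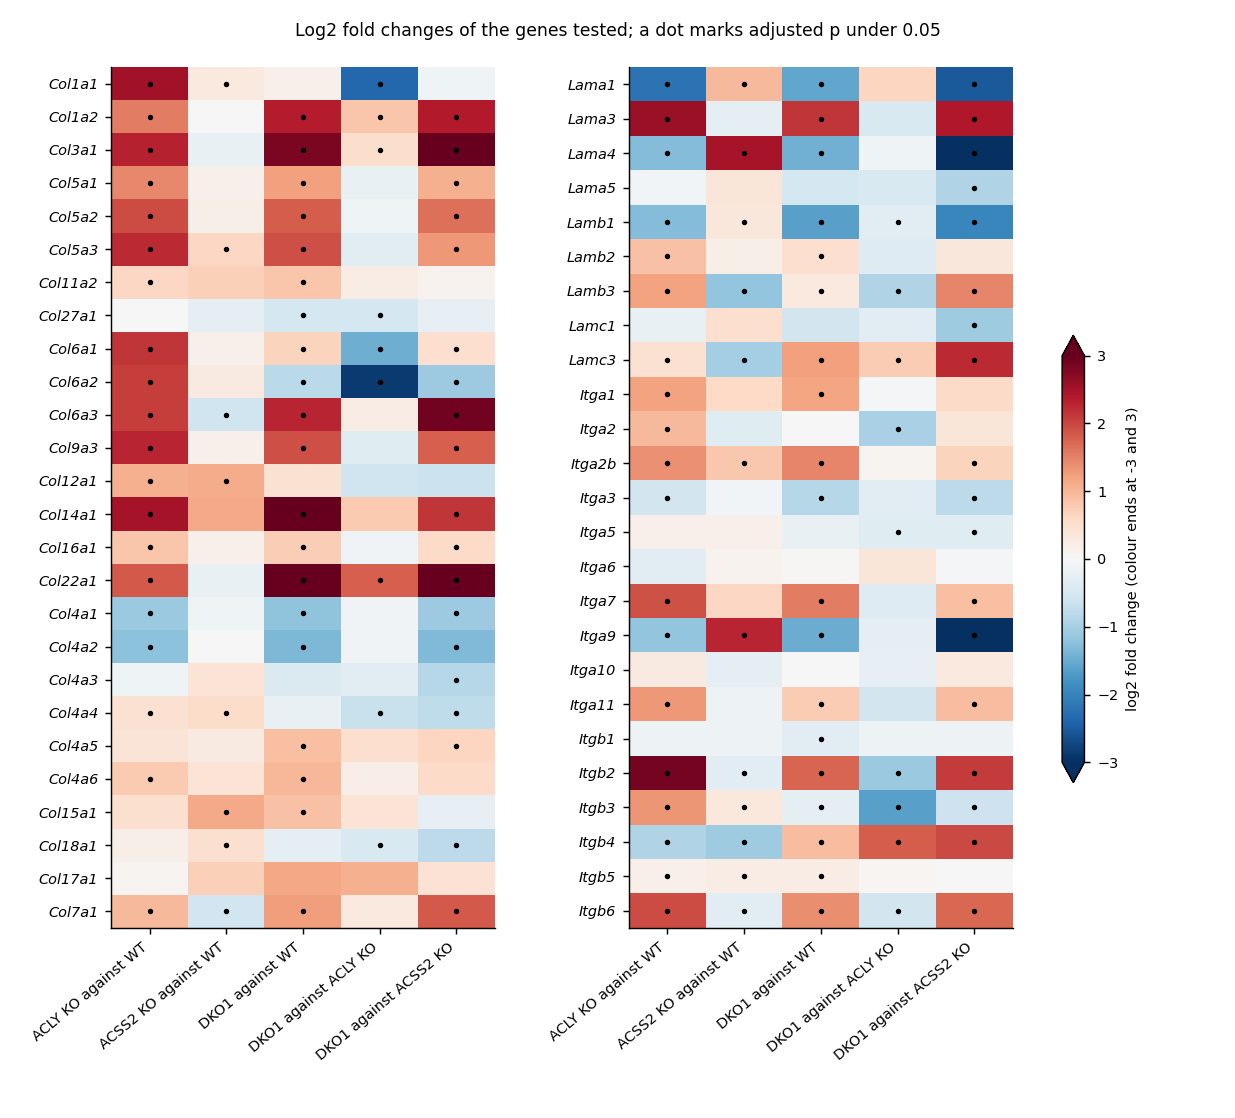
Log2 fold changes of 51 tested genes (rows, by class) in the 5 pairwise comparisons of genotypes (columns), from lower (blue) to higher (red), with colours ending at -3 and 3. A dot marks an adjusted p under 0.05; the ACLY KO against WT column holds 31 higher and 8 lower genes, and the ACSS2 KO against WT column 13 and 7.

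An F test over the 4 genotypes called 45 of the 52 genes, where 68.9% of all genes were called. By class these were 24 of 26 collagen, 9 of 10 laminin and 12 of 16 integrin genes. The effect of ACLY loss was measured in a pair of comparisons with no library in common, ACLY KO against WT and DKO1 against ACSS2 KO, although DKO1 derives from ACLY KO cells. Of the 52 genes, 20 were higher in both, where 15.0% of all genes were, and 7 were lower in both, where 16.7% of all genes were. The 7 lower genes were the type IV pair Col4a1 and Col4a2, the laminin chains Lama1, Lama4 and Lamb1, and the integrin subunits Itga3 and Itga9. Among the genes higher in both, Col5a3, Col9a3, Col14a1 and Col22a1 had WT means under 10 and passed the limit for testing through genotypes in which they were high. Lama1, among the lower, had means under 10 in ACLY KO and DKO1. The direction of these genes was thus partly set by that limit. The genes Col4a4, Col6a2, Itgb3 and Itgb4 were called in both comparisons with opposite signs, as were 2.72% of all genes. For loss of ACSS2, measured as ACSS2 KO against WT and as DKO1 against ACLY KO, 0 genes were higher in both, where 2.9% of all genes were, and 3 were lower in both, where 2.63% of all genes were. These 3 were Itgb2, Itgb6 and Lamb3, and 8 genes were called with opposite signs, where 4.75% of all genes were.

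**Figure D3:**
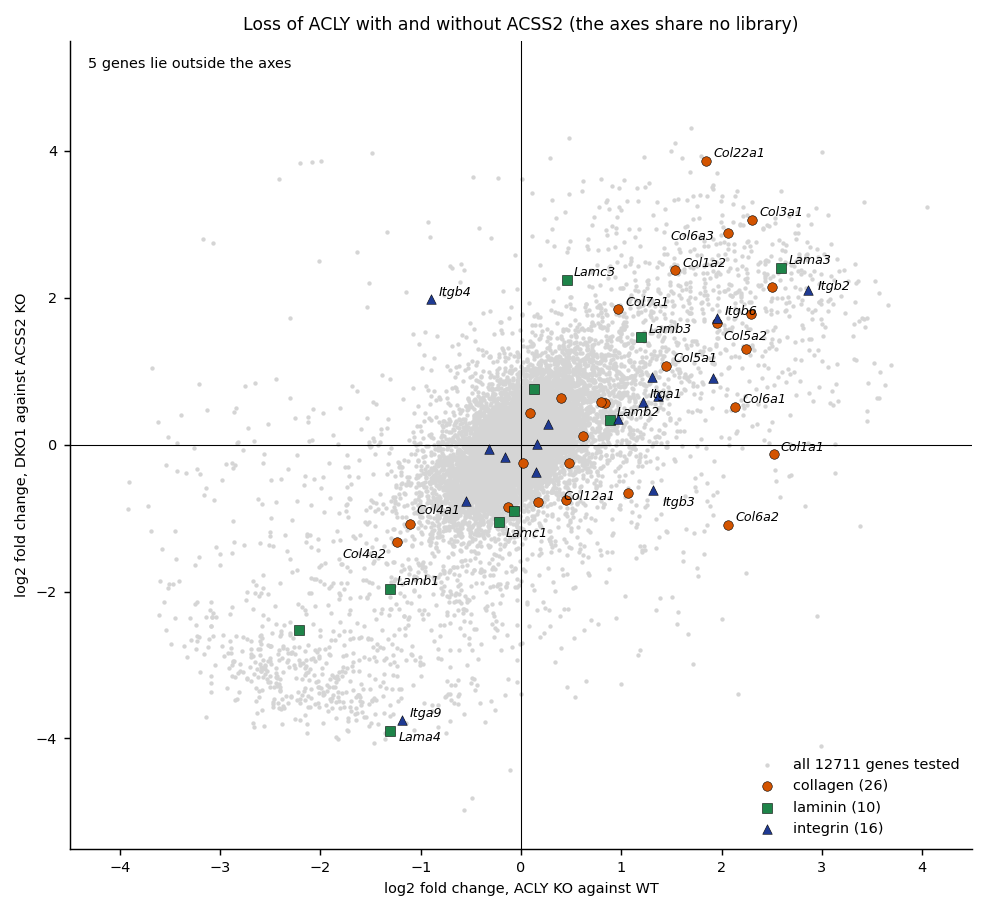
Log2 fold change of each tested gene after loss of ACLY in cells with ACSS2 (x axis, ACLY KO against WT) and without it (y axis, DKO1 against ACSS2 KO). Coloured points are the 52 collagen, laminin and integrin genes and grey points all genes tested, of which 5 lie outside the axes; 20 genes of the 52 were called higher in both and 7 lower in both.

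The values of 17 genes are given library by library, in the order of replicates 1 to 4 for WT and ACLY KO, 1, 2 and 4 for ACSS2 KO, and 1, 3 and 4 for DKO1. Where a value stands beside an adjusted p, it is the log2 fold change of the comparison named. The 17 genes had a mean of 100 normalized counts or more and a called log2 fold change over 1 in absolute size in some comparison. Coordinates are from GENCODE on GRCm38. Of the 52 tested genes, 34 had a promoter window (250 bases before to 50 after the start) in a RefSeq table for GRCm38.p6, and these had 39 windows. They were searched on both strands for the TATA box (TATAAA), the CCAAT box (CCAAT itself), the GC box (GGGCGG) and the AP-1 site (TGACTCA), which share no overlap. The TATA box was in 7.69% of the windows, the CCAAT box in 28.2%, the GC box in 56.4% and the AP-1 site in 5.13%, against 13.6, 37.4, 35.7 and 5.20% of all 32851 windows in the table. A match is only a run of letters and shows no binding.

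Col1a1, the major chain of type I collagen (chr11:94936224-94953042), had 458, 428, 374 and 454 normalized counts in WT, 2497, 2260.2, 2651 and 2409 in ACLY KO, 498, 537 and 532 in ACSS2 KO and 504, 493 and 434 in DKO1. The ACLY KO libraries stood far above all others and overlapped none of them, while DKO1 overlapped both WT and ACSS2 KO. The log2 fold change was 2.52 (SE 0.08, adjusted p = 1.3e-10) in ACLY KO against WT and -2.36 (SE 0.086, adjusted p = 2.07e-09) in DKO1 against ACLY KO. DKO1 against WT was 0.16 (adjusted p = 0.139), which became 0.22 (adjusted p = 0.0381) when DKO1 replicate 4 was left out. Its partner Col1a2, named here after its values were seen, had 24.96, 24.5, 15.03 and 12.7 normalized counts in WT, 49.1, 64.6, 52.03 and 57.7 in ACLY KO, 28.5, 13.7 and 15.6 in ACSS2 KO and 113, 94.5 and 90.8 in DKO1. Unlike Col1a1, Col1a2 was highest in DKO1, at 2.36 (adjusted p = 8.7e-06) against WT and 0.82 (adjusted p = 0.0378) against ACLY KO. In the usual type I trimer, Col1a1 chains outnumber Col1a2 chains. The ratio of Col1a1 to Col1a2 per kilobase was 45.6 ± 15.96 (SD, n = 4) for WT, 84.5 ± 14.7 (SD, n = 4) for ACLY KO, 57.4 ± 21.5 (SD, n = 3) for ACSS2 KO and 9.12 ± 0.727 (SD, n = 3) for DKO1.

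Col3a1, the chain of type III collagen, which forms fine fibrils in soft tissues (chr1:45311538-45349706), had 87.4, 85.9, 73.4 and 75.7 normalized counts in WT, 407, 429, 391 and 375 in ACLY KO, 68.6, 66.9 and 69.7 in ACSS2 KO and 711, 606 and 445 in DKO1. Both genotypes without ACLY lay above both genotypes with it, and DKO1 lay above ACLY KO. The log2 fold change was 2.30 (SE 0.12, adjusted p = 8.4e-09) in ACLY KO and 2.83 (SE 0.13, adjusted p = 3.06e-09) in DKO1 against WT, and 0.53 (SE 0.13, adjusted p = 0.00991) between DKO1 and ACLY KO. Col5a1, a type V chain that starts fibrils and limits their width (chr2:27886425-28039514), had 1201, 1125, 1161 and 1249 normalized counts in WT, 3297, 3133, 3378 and 3116 in ACLY KO, 1299.8, 1327 and 1335 in ACSS2 KO and 3240.5, 3489.9 and 1911 in DKO1. ACLY KO and DKO1 overlapped each other and lay above WT and ACSS2 KO in every library, with DKO1 replicate 4 the lowest of them. Both rose against WT, at 1.45 (SE 0.14, adjusted p = 2.23e-06) in ACLY KO and 1.23 (SE 0.15, adjusted p = 1.76e-05) in DKO1.

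Among the other fibrillar genes, the type V chains Col5a2 and Col5a3 were low and rose in the same genotypes, at 1.95 (adjusted p = 5.9e-06) and 2.25 (adjusted p = 8.33e-07) in ACLY KO against WT. Col11a2 rose to a lesser extent, at 0.62 (adjusted p = 0.0433). Col27a1, a cartilage collagen, stood at 0.016 (adjusted p = 0.913) in ACLY KO and fell in DKO1, at -0.52 (adjusted p = 0.000999). Col5a3 had a WT mean under 10 and passed the limit for testing through the genotypes in which it was high. In all, 7 of 8 tested fibrillar genes, with Col5a3 among them, were higher in ACLY KO and 0 lower, where 23.8% of all genes were higher and 24.7% lower. In DKO1 against WT 6 were higher and 1 lower, where 27.9% of all genes were higher and 28.1% lower. The share of all collagen counts held by fibrillar genes was 2.72% ± 0.395 (SD, n = 4) for WT, 11.4% ± 0.384 (SD, n = 4) for ACLY KO, 2.83% ± 0.0519 (SD, n = 3) for ACSS2 KO and 8.11% ± 0.452 (SD, n = 3) for DKO1. These shares did not overlap between the genotypes with and without ACLY.

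Stellate cells and fibroblasts are the usual sources of fibrillar collagen in liver. The 10 marker genes of those cells summed to 1716 to 1956 normalized counts in WT, 867 to 909 in ACLY KO, 4702 to 5654 in ACSS2 KO and 933 to 1193 in DKO1. Acta2 made up most of that sum. Of the 10, Lrat, Thy1, Lum and Pdgfra had means of at most 2.58, and Reln of at most 4.87. Des, the muscle and stellate cell filament desmin, moved with the fibrillar genes, with means of 4.53, 38.4, 7.69 and 20.3 in WT, ACLY KO, ACSS2 KO and DKO1, at 2.87 (adjusted p = 5.62e-06) in ACLY KO and 1.93 (adjusted p = 0.00032) in DKO1 against WT. Postn was 1.62 (adjusted p = 0.00943) in ACLY KO and 0.87 (adjusted p = 0.147) in DKO1, and Pdgfrb was 0.26 (adjusted p = 0.454) and 1.37 (adjusted p = 0.00151). Des and Postn had WT and ACSS2 KO means under 10 and passed the limit for testing through the genotypes without ACLY. The direction of their calls was thus largely fixed by that limit. The 7 endothelial markers summed to 26.3 to 37.7 in WT and 125 to 145 in ACLY KO. In ACSS2 KO and DKO1 the sums were 16.2 to 29.5 and 69.4 to 101. The sum moved with the fibrillar genes through Pecam1 and Vwf. Cdh5 was low, with means of 1.54, 18.9, 1.81 and 6.63 in WT, ACLY KO, ACSS2 KO and DKO1. Kdr went the other way from WT to ACLY KO and DKO1, with means of 12.9, 2.21, 3.84 and 2.05 in the same order. Tek, Emcn and Stab2 had means of at most 1.33. The 7 macrophage and leukocyte markers had overlapping or close sums of 1350 to 1791 over all libraries, and Clec4f was at 0 in each. The part of the stellate cell, fibroblast and endothelial markers in these results was not tested.

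**Figure D4:**
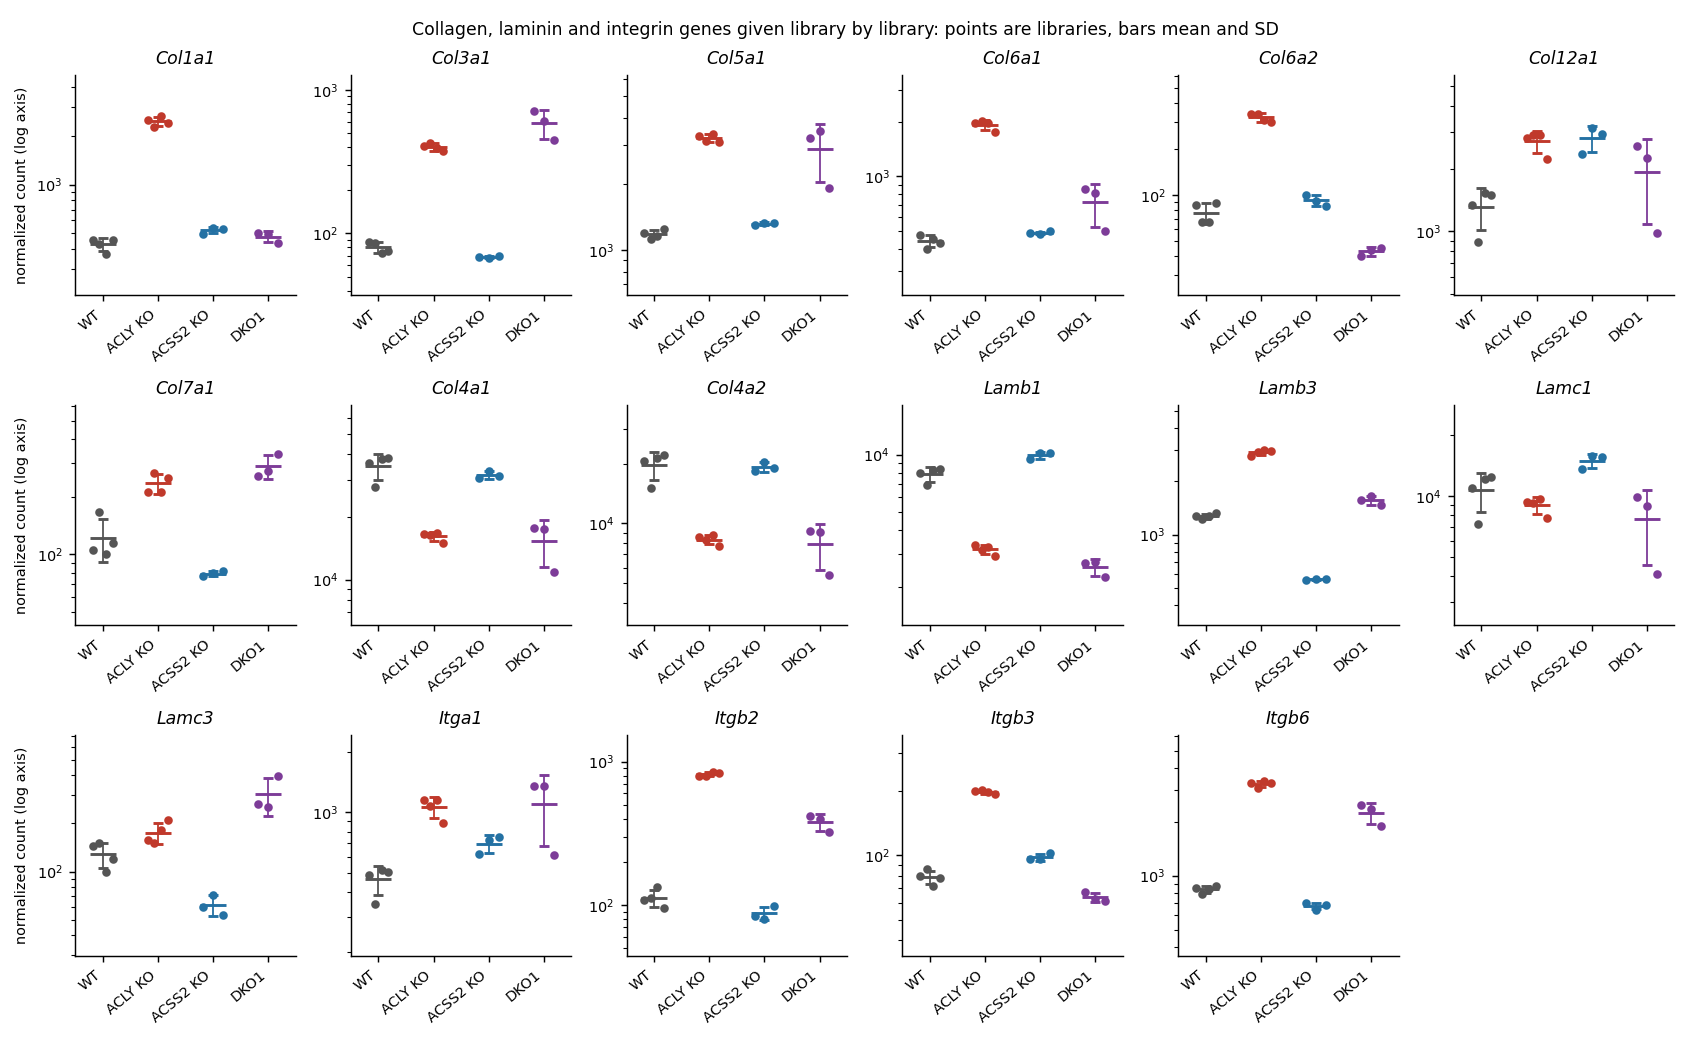
Normalized counts on a log axis of the 17 genes given library by library, 1 panel a gene, for the 4 genotypes. Each panel has its own scale, points are libraries and bars the mean and SD; Col1a1, Col6a2 and Itgb3 are high in ACLY KO alone, whereas Col3a1, Col5a1, Itgb2 and Itgb6 are high in ACLY KO and DKO1.

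Type VI collagen, whose microfibrils link basement membranes to the matrix around them, is made of the chains Col6a1, Col6a2 and Col6a3. Col6a1 (chr10:76708792-76726168) and Col6a2 (chr10:76595762-76623630) lie 85161 bases apart on the same strand, and the bases before their starts are shown because the pair separated in DKO1. Both are given 5′ to 3′ on the minus strand of GRCm38.p6, as chr10:76726169-76726294 and chr10:76623631-76623880, and capitals mark the only match, a GC box on the opposite strand.
Col6a1: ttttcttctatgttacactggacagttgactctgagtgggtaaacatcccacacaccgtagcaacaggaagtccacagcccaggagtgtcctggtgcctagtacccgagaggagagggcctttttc
Col6a2: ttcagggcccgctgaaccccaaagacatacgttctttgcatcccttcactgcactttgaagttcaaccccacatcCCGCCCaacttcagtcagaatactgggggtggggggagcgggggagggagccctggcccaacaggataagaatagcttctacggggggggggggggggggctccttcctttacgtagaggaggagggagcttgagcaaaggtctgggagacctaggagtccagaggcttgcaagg
The whole window of Col6a1 also held 1 TGACTCA, beyond the bases shown.

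Col6a1 had 476, 398, 453 and 429.9 normalized counts in WT, 1963, 2030.3, 1970.01 and 1763 in ACLY KO, 489, 484 and 497 in ACSS2 KO and 851, 811 and 497 in DKO1. Col6a2 had 85.4, 66.2, 66.3 and 89.1 normalized counts in WT, 338, 341, 309.9 and 299 in ACLY KO, 101, 91.8 and 84.9 in ACSS2 KO and 39.9, 43.7 and 44.9 in DKO1. Both were highest in ACLY KO, with no overlap with any other genotype. In DKO1, Col6a1 stayed above WT, while Col6a2 lay below every WT library. The log2 fold changes in ACLY KO against WT were alike, 2.13 (SE 0.14, adjusted p = 4.63e-08) for Col6a1 and 2.07 (SE 0.11, adjusted p = 1.19e-08) for Col6a2. In DKO1 against WT they had opposite signs, 0.67 (SE 0.15, adjusted p = 0.00173) and -0.81 (SE 0.12, adjusted p = 9.59e-05). Without DKO1 replicate 4 the values were 0.92 (adjusted p = 3.7e-07) and -0.85 (adjusted p = 0.00015). Col6a3, named after its values were seen, had 27.8, 29.5, 35.2 and 26.9 normalized counts in WT, 114, 138, 143 and 118 in ACLY KO, 27.7, 16.6 and 15.6 in ACSS2 KO and 148, 160.02 and 141 in DKO1. It was high in both genotypes without ACLY, at 2.06 (adjusted p = 3.7e-07) in ACLY KO and 2.29 (adjusted p = 2.87e-07) in DKO1 against WT. The ratio of Col6a3 to Col6a2 per kilobase was 0.279 ± 0.0746 (SD, n = 4) for WT, 0.278 ± 0.0355 (SD, n = 4) for ACLY KO, 0.149 ± 0.0374 (SD, n = 3) for ACSS2 KO and 2.44 ± 0.220 (SD, n = 3) for DKO1. Thus the 3 chains rose by similar amounts after loss of ACLY alone, and their changes against WT diverged when both enzymes were lost.

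Col12a1, a FACIT collagen that coats type I fibrils and has the second longest exon length of the tested genes (chr9:79598991-79718831), had 1336, 884, 1530.2 and 1495 normalized counts in WT, 2803, 2891, 2909.8 and 2221 in ACLY KO, 2354, 3154 and 2926 in ACSS2 KO and 2564, 2239 and 973 in DKO1. Every ACLY KO and ACSS2 KO library was above every WT library, whereas DKO1 ranged from near the lowest WT library to the level of ACLY KO. Against WT, the log2 fold changes were 1.07 (SE 0.27, adjusted p = 0.00462) in ACLY KO and 1.12 (SE 0.29, adjusted p = 0.0109) in ACSS2 KO. In DKO1 the value was 0.47 (adjusted p = 0.183), which became 0.90 (adjusted p = 0.00137) when replicate 4 was left out. Col7a1, the chain of the anchoring fibrils that fasten epithelia to the tissue below (chr9:108953586-108984875), had 106, 167, 100.4 and 114 normalized counts in WT, 213, 267, 211 and 252 in ACLY KO, 76.7, 79.96 and 81.6 in ACSS2 KO and 258, 274 and 337 in DKO1. It was low in ACSS2 KO, middling in WT and high in ACLY KO and DKO1, with no overlap except between the last pair. Relative to WT, log2 fold changes were 0.97 (SE 0.15, adjusted p = 0.000138) in ACLY KO, -0.58 (SE 0.16, adjusted p = 0.018) in ACSS2 KO and 1.26 (SE 0.16, adjusted p = 2.48e-05) in DKO1.

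The other FACIT genes rose after loss of ACLY. Col16a1 was 0.84 (adjusted p = 6.82e-08) in ACLY KO and 0.73 (adjusted p = 4.44e-07) in DKO1 against WT. The low genes Col9a3, Col14a1 and Col22a1 had log2 fold changes of 2.29, 2.50 and 1.85 in ACLY KO, all called. Col22a1, a collagen of tissue junctions, was highest in DKO1, at 3.65 (adjusted p = 9.73e-08). Of the 5 tested FACIT genes, the 3 low ones (Col9a3, Col14a1 and Col22a1) had WT and ACSS2 KO means under 10 and passed the limit for testing through the genotypes without ACLY, so their direction was largely fixed by that limit. Of the multiplexins, basement membrane collagens that carry glycosaminoglycan chains, Col15a1 was higher in ACSS2 KO at 1.13 (adjusted p = 0.0112), and so was Col18a1, the parent of endostatin, at 0.49 (adjusted p = 0.00714). With a WT mean of 9.91, Col15a1 passed the limit for testing through the other genotypes, so its direction was partly set by that limit. From ACLY KO to DKO1, Col18a1 was lower, at -0.46 (adjusted p = 0.0112), and at -0.29 (adjusted p = 0.0186) without DKO1 replicate 4. Col17a1, the transmembrane collagen of hemidesmosomes, was called in no comparison.

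The main type IV collagen pair ran the other way. Col4a1 (chr8:11198423-11312826, minus strand) and Col4a2 (chr8:11312805-11449287, plus strand) encode the chains of the commonest type IV trimer and lie head to head, so that their first exons share 22 bases. Those bases, chr8:11312805-11312826 of GRCm38.p6 on the strand of Col4a2, are shown because 1 start region serves both genes, and capitals mark a GC box.
Col4a1 and Col4a2: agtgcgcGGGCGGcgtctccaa
In its 300-base window Col4a1 held 1 CCAAT and 1 GC box, and Col4a2 held 1 CCAAT and 3 GC boxes.

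Col4a1 had 36256, 27935, 38169 and 38506 normalized counts in WT, 16492, 16349.9, 16828 and 15067 in ACLY KO, 30868, 33379 and 31485 in ACSS2 KO and 17752, 17584 and 10850.3 in DKO1. Col4a2 had 20652, 15033, 21257 and 21961 normalized counts in WT, 8552, 8209, 8716 and 7684 in ACLY KO, 18426, 20375 and 18890.4 in ACSS2 KO and 9118, 9056 and 5528 in DKO1. In both genes the 7 libraries without ACLY lay below the 7 with it, and WT replicate 2 and DKO1 replicate 4 were the lowest of their genotypes. The log2 fold changes in ACLY KO against WT were -1.11 (SE 0.15, adjusted p = 3.22e-05) for Col4a1 and -1.24 (SE 0.15, adjusted p = 2.11e-05) for Col4a2. In DKO1 against WT they were -1.22 (SE 0.16, adjusted p = 2.53e-05) and -1.34 (SE 0.17, adjusted p = 1.82e-05), and without DKO1 replicate 4 -0.98 and -1.10, still called. ACSS2 KO differed from WT by -0.13 (adjusted p = 0.608) and -0.022 (adjusted p = 0.947), and overlapped it. The ratio of Col4a1 to Col4a2 per kilobase was 1.59 for WT, 1.73 for ACLY KO, 1.47 for ACSS2 KO and 1.73 for DKO1, a narrow range beside the change in level. Together they held 71.8% ± 0.841 of collagen counts in WT and 41.8% ± 0.218 in ACLY KO (SD, n = 4 each), 64.3% ± 0.613 in ACSS2 KO and 42.2% ± 1.41 in DKO1 (SD, n = 3 each).

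The other type IV chains did not follow that pair. Col4a5 and Col4a6 lie head to head on the X chromosome, 1308 bases apart, and were named after their values were seen. Col4a5 had 6826, 5700.4, 7386 and 7360.4 normalized counts in WT, 9223, 8796, 9547 and 8154 in ACLY KO, 7781, 8532 and 8214 in ACSS2 KO and 16462, 16167 and 7757 in DKO1. DKO1 replicates 1 and 3 stood above all other libraries, and DKO1 replicate 4 lay between the highest WT and the lowest ACSS2 KO library. Col4a5 was 0.91 (adjusted p = 0.00233) in DKO1 against WT, and 1.27 (adjusted p = 1.63e-07) without DKO1 replicate 4. Against ACLY KO it was 0.51 (adjusted p = 0.0848) with that library and 0.87 (adjusted p = 2.31e-05) without it. Col4a6 was 0.80 (adjusted p = 0.0114) in ACLY KO and 0.9952 (adjusted p = 0.00417) in DKO1 against WT, and 1.41 in DKO1 without replicate 4. Over all genes tested on the X chromosome, the median log2 value was 0.22 for DKO1 against WT. The ratio of Col4a5 to Col4a1 per kilobase was 0.216 for WT, 0.613 for ACLY KO, 0.285 for ACSS2 KO and 0.949 for DKO1. Col4a3 and Col4a4 join Col4a5 in the trimer of kidney and other specialised basement membranes. In ACLY KO against WT, Col4a3 was not called, at -0.13 (adjusted p = 0.726), and Col4a4 was called higher, at 0.45 (adjusted p = 0.0362). Col4a4 fell in DKO1 against ACSS2 KO, at -0.76 (adjusted p = 0.00422), and at -0.48 (adjusted p = 0.00288) without DKO1 replicate 4, while the call for Col4a3, -0.84 (adjusted p = 0.0325), became -0.41 (adjusted p = 0.102) without that library.

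The laminins split by chain. Lamb1, the beta chain of the laminins that are widespread in basement membranes (chr12:31265234-31329644), fell after loss of ACLY. The 191 bases before its start, chr12:31265043-31265233 of GRCm38.p6 on the plus strand, are shown because Lamb1 followed Col4a1 and Col4a2, and capitals mark 1 CCAAT and 2 GC boxes on the opposite strand.
Lamb1: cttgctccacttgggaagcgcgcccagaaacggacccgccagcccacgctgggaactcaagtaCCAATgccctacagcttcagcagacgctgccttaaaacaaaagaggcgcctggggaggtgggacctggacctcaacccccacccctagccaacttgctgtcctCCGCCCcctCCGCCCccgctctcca
Lamb1 had 7962, 6875, 8307 and 8349.97 normalized counts in WT, 3346, 3158, 3253 and 2931 in ACLY KO, 9433, 10174 and 10159.5 in ACSS2 KO and 2693, 2718 and 2264 in DKO1. The ACLY KO and DKO1 libraries were all below the WT libraries, and the ACSS2 KO libraries were all above them. The log2 fold changes against WT were -1.31 (SE 0.08, adjusted p = 3.25e-08) in ACLY KO, 0.34 (SE 0.087, adjusted p = 0.0113) in ACSS2 KO and -1.62 (SE 0.087, adjusted p = 9.6e-09) in DKO1. Lamb2, the alternative beta chain, moved the opposite way, at 0.89 (adjusted p = 0.000245) in ACLY KO and 0.51 (adjusted p = 0.0165) in DKO1, and 0.76 (adjusted p = 1.33e-05) in DKO1 without replicate 4. The ratio of Lamb1 to Lamb2 per kilobase was accordingly 0.712 for WT, 0.799 for ACSS2 KO, 0.155 for ACLY KO and 0.165 for DKO1.

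Lamc1, the gamma chain shared by most laminins (chr1:153218922-153332786), had 10910.5, 7228, 12146 and 12339.7 normalized counts in WT, 9307, 9168, 9649 and 7737 in ACLY KO, 13604, 15639 and 15530.5 in ACSS2 KO and 9869, 8950.2 and 4129.5 in DKO1. The values in WT replicate 2 and DKO1 replicate 4 were far below the other libraries of their genotypes, and all ACSS2 KO libraries were above all others. ACSS2 KO against WT was 0.51 (adjusted p = 0.176), and DKO1 against ACSS2 KO was -1.06 (SE 0.28, adjusted p = 0.00594), or -0.66 (adjusted p = 0.00728) without DKO1 replicate 4. Lama5, the alpha chain that joins Lamb1 or Lamb2 with Lamc1, was -0.075 (adjusted p = 0.83) in ACLY KO against WT and -0.90 (adjusted p = 0.0159) in DKO1 against ACSS2 KO, or -0.54 (adjusted p = 0.0448) without that library. Lama1, an embryonic alpha chain with a mean of 15.6 in WT, fell, at -2.21 (adjusted p = 2.13e-05) in ACLY KO and -1.56 (adjusted p = 0.000676) in DKO1. With means of 2.55 in ACLY KO and 5.06 in DKO1, Lama1 passed the limit for testing through the genotypes with ACLY.

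Lamb3, the beta chain of the laminin that anchors epithelia at hemidesmosomes (chr1:193207699-193343878), had 1269, 1226, 1269.6 and 1325 normalized counts in WT, 2782, 2935, 3001 and 2964 in ACLY KO, 555, 562 and 565 in ACSS2 KO and 1563, 1653 and 1460.3 in DKO1. No genotype overlapped another: ACSS2 KO was lowest, then WT, then DKO1, and ACLY KO was highest. Against WT, the log2 fold changes were 1.20 (SE 0.053, adjusted p = 1.51e-09) in ACLY KO, -1.18 (SE 0.057, adjusted p = 2.97e-08) in ACSS2 KO and 0.29 (SE 0.057, adjusted p = 0.000782) in DKO1. DKO1 was below ACLY KO, at -0.91 (adjusted p = 2.34e-07). Lama3, the alpha chain of that trimer, at 23.3 normalized counts in WT and 144 in ACLY KO, rose by 2.59 (adjusted p = 1.72e-05), and by 2.14 (adjusted p = 0.000157) in DKO1 against WT.

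Lamc3, a gamma chain of more restricted tissues (chr2:31887291-31946539), had 144, 150.5, 99.2 and 120.04 normalized counts in WT, 159, 151, 182 and 209 in ACLY KO, 60.5, 72.003 and 53.97 in ACSS2 KO and 263, 251 and 396 in DKO1. It was lowest in ACSS2 KO and highest in DKO1, and WT and ACLY KO came close to each other without overlap. Relative to WT, log2 fold changes were 0.45 (SE 0.18, adjusted p = 0.0484) in ACLY KO, -1.03 (SE 0.19, adjusted p = 0.00139) in ACSS2 KO and 1.22 (SE 0.19, adjusted p = 0.000121) in DKO1. Lama4, the alpha chain of laminins under endothelium and around muscle, named after its values were seen, had 65.3, 43.9, 64.97 and 65.4 normalized counts in WT, 26.01, 21.6, 23.1 and 22.4 in ACLY KO, 302, 325 and 366 in ACSS2 KO and 30.5, 13.5 and 23.2 in DKO1. The ACSS2 KO libraries were above all others, and ACLY KO and DKO1 were below WT. The log2 fold changes against WT were 2.46 (SE 0.23, adjusted p = 5.65e-06) in ACSS2 KO, -1.31 (SE 0.21, adjusted p = 0.000175) in ACLY KO and -1.43 (SE 0.23, adjusted p = 0.000144) in DKO1. The stellate cell and fibroblast marker sum, led by Acta2 with means of 1657, 630.4, 4454 and 774 in WT, ACLY KO, ACSS2 KO and DKO1, was likewise highest in ACSS2 KO, and its part in this result was not tested.

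Among receptors for collagen, Itga1, which pairs with Itgb1 and prefers type IV collagen (chr13:114953096-115101964), had 484, 347, 513 and 505 normalized counts in WT, 1153, 1078, 1154 and 882 in ACLY KO, 615, 724 and 748 in ACSS2 KO and 1346, 1351 and 613 in DKO1. All libraries of the other genotypes were above WT, and DKO1 replicates 1 and 3 were the highest of all. Against WT, the log2 fold changes were 1.21 (SE 0.22, adjusted p = 0.000522) in ACLY KO, 0.60 (SE 0.24, adjusted p = 0.0882) in ACSS2 KO and 1.18 (SE 0.24, adjusted p = 0.00105) in DKO1. Itga2, a neighbouring gene whose product prefers fibrillar collagen, was higher in ACLY KO at 0.97 (adjusted p = 0.00101), and stood at -0.0037 (adjusted p = 0.99) in DKO1 against WT. All genes tested on chromosome 13, which carries both, had a median of -0.42 in ACLY KO against WT. The fibroblast collagen receptor Itga11 was low, at 13.4 normalized counts in WT, and rose by 1.31 (adjusted p = 0.000602) in ACLY KO. Itga10, a chondrocyte collagen receptor, was called in no comparison.

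Itgb1, the partner of these subunits, varied little, from 45759 normalized counts in WT to 36993 in DKO1. It was lower in DKO1 against WT, at -0.32 (adjusted p = 0.0176), and at -0.16 (adjusted p = 0.0316) without DKO1 replicate 4. The laminin receptor subunit Itga3 fell after loss of ACLY, at -0.55 (adjusted p = 0.0032) in ACLY KO and -0.87 (adjusted p = 0.000171) in DKO1. The ratio of Itga3 to Itgb1 per kilobase was 0.310 for WT, 0.323 for ACSS2 KO, 0.235 for ACLY KO and 0.212 for DKO1. The other laminin receptors were not alike: Itga6 was -0.32 (adjusted p = 0.153) in ACLY KO and 0.031 (adjusted p = 0.903) in DKO1 against WT, the latter 0.35 (adjusted p = 0.0109) without DKO1 replicate 4. Its epithelial partner Itgb4, at 14.9 normalized counts in WT, was -0.89 (adjusted p = 0.0247), -1.06 (adjusted p = 0.0284) and 0.93 (adjusted p = 0.0268) in ACLY KO, ACSS2 KO and DKO1 against WT, and 0.94 (adjusted p = 0.052) in DKO1 without replicate 4. The Itgb4 means in ACLY KO and ACSS2 KO, 7.12 and 6.18, were under the limit for testing. The muscle laminin receptor Itga7 was low and rose by 1.91 (adjusted p = 0.000102) in ACLY KO.

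The fibronectin receptor subunit Itga5 was 0.15 (adjusted p = 0.311) in ACLY KO against WT. From ACLY KO to DKO1 it was lower, at -0.37 (adjusted p = 0.0371), a call that was lost without DKO1 replicate 4, at -0.18 (adjusted p = 0.0768). Itga9, which pairs with Itgb1 and binds tenascin-C and osteopontin, was named after its values were seen and had 68.8, 38.4, 51.5 and 66.1 normalized counts in WT, 21.9, 15.6, 23.8 and 37.4 in ACLY KO, 267, 251 and 290.1 in ACSS2 KO and 22.9, 13.1 and 22.6 in DKO1. Its ACSS2 KO libraries were above all others and its ACLY KO and DKO1 libraries were below all WT libraries, the same pattern by genotype as that of Lama4. Relative to WT, log2 fold changes were 2.27 (SE 0.28, adjusted p = 6.53e-05) in ACSS2 KO, -1.19 (SE 0.26, adjusted p = 0.00208) in ACLY KO and -1.48 (SE 0.28, adjusted p = 0.000637) in DKO1.

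Itgb2, the beta subunit of the leukocyte integrins (chr10:77530252-77565708), had 108, 112, 133 and 95.9 normalized counts in WT, 795, 794, 854 and 828 in ACLY KO, 84.5, 80.03 and 98.5 in ACSS2 KO and 421, 398 and 322 in DKO1. ACLY KO was above DKO1, and DKO1 was above WT and ACSS2 KO, which overlapped. The log2 fold changes against WT were 2.86 (SE 0.11, adjusted p = 5.66e-10) in ACLY KO, -0.35 (SE 0.12, adjusted p = 0.0496) in ACSS2 KO and 1.75 (SE 0.12, adjusted p = 9.07e-08) in DKO1, and DKO1 against ACLY KO was -1.11 (SE 0.12, adjusted p = 2.54e-05). Its usual partners Itgal, Itgam, Itgax and Itgad did not reach the limit for testing. The macrophage and leukocyte markers summed to 1350 to 1420 in ACLY KO and 1408 to 1522 in WT, and most of that sum was Csf1r. In the same list the leukocyte gene Ptprc, below the limit for testing, had means of 4.45, 11.7, 2.76 and 18.4 in WT, ACLY KO, ACSS2 KO and DKO1, and Cd68 was 0.46 (adjusted p = 0.175) in ACLY KO and 0.76 (adjusted p = 0.0385) in DKO1 against WT. Their part in the values of Itgb2 was not tested.

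Itgb3, a partner of Itgav and Itga2b (chr11:104608000-104670476), had 79.7, 86.04, 71.96 and 78.3 normalized counts in WT, 200.001, 202, 198 and 193 in ACLY KO, 96.1, 95.9 and 102 in ACSS2 KO and 67.4, 62.5 and 61.3 in DKO1. ACLY KO was highest, then ACSS2 KO, WT and DKO1, with no overlap. Against WT, the log2 fold changes were 1.32 (SE 0.079, adjusted p = 2.45e-08) in ACLY KO, 0.31 (SE 0.085, adjusted p = 0.016) in ACSS2 KO and -0.30 (SE 0.085, adjusted p = 0.00824) in DKO1, and DKO1 against ACLY KO was -1.62 (SE 0.085, adjusted p = 4.15e-08). Itgb6, an epithelial partner of Itgav that activates latent TGF-β (chr2:60598292-60722643), had 857, 789, 840.2 and 881 normalized counts in WT, 3306, 3076, 3394 and 3278 in ACLY KO, 699.7, 644 and 686 in ACSS2 KO and 2482, 2349.9 and 1898 in DKO1. It too separated all 4 genotypes, but with DKO1 next below ACLY KO and ACSS2 KO lowest. Relative to WT, log2 fold changes were 1.95 (SE 0.079, adjusted p = 6.92e-10) in ACLY KO, -0.31 (SE 0.085, adjusted p = 0.015) in ACSS2 KO and 1.41 (SE 0.085, adjusted p = 2.85e-08) in DKO1. Itgb5, a further partner of Itgav, rose by 0.16 (adjusted p = 0.0164) in ACLY KO, 0.22 (adjusted p = 0.00694) in ACSS2 KO and 0.23 (adjusted p = 0.00262) in DKO1. Itgav itself, whose symbol has no digit, was -0.27 (adjusted p = 0.0987) in ACLY KO and -0.57 (adjusted p = 0.00353) in DKO1 against WT. Itga2b, the platelet partner of Itgb3, was low and rose by 1.37 (adjusted p = 4.87e-05) in ACLY KO.

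Whether the effect of ACSS2 loss differed with and without ACLY was tested as an interaction, the log2 change from ACLY KO to DKO1 minus the log2 change from WT to ACSS2 KO. It was called for 22 of the 52 genes, 8 higher and 14 lower, where 12.0% of all genes were higher and 15.1% lower. With equal library totals, which moved the median of all genes by -0.15, the split was 5 and 16. The genes with the largest negative values were Col6a2 at -3.16 (SE 0.17, adjusted p = 6.85e-08), Col1a1 at -2.65 (SE 0.12, adjusted p = 1.6e-08), Lama4 at -2.58 (SE 0.32, adjusted p = 7.15e-05) and Itga9 at -2.57 (SE 0.40, adjusted p = 0.000414). The first pair fell sharply from ACLY KO to DKO1, while the second pair rose from WT to ACSS2 KO and had no such rise in cells without ACLY. Itgb3 followed at -1.93 (adjusted p = 2.07e-07), Col12a1 at -1.72 (adjusted p = 0.00698) and Col6a1 at -1.62 (adjusted p = 9.44e-05). The largest positive values were those of Itgb4 at 2.87 (adjusted p = 0.000481), Col22a1 at 2.01 (adjusted p = 0.00109) and Lamc3 at 1.79 (adjusted p = 0.000313). Itgb4 had means of 7.12 in ACLY KO and 6.18 in ACSS2 KO. It passed the limit for testing through WT and DKO1, so the sign of its interaction was partly set by that limit. Col22a1 had means of 7.58 in WT and 6.63 in ACSS2 KO and passed through the genotypes without ACLY. For Col4a1, Col4a2 and Itgb1 the interaction was 0.025 (adjusted p = 0.946), -0.083 (adjusted p = 0.822) and -0.0018 (adjusted p = 0.994).

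DKO1 replicate 4 moved the whole set. The median deviation of the 52 genes from their genotype mean was -0.31 on the log2 scale in that library, with 14 of 52 above the mean, against 0.20 and 0.12 in DKO1 replicates 1 and 3. The median over all genes tested was under 0.01 in size in each of the 14 libraries. Beside the genes named above, leaving it out brought into the call Itga1 in DKO1 against ACSS2 KO, from 0.58 (adjusted p = 0.0746) to 0.96 (adjusted p = 0.000194), and Itga2 in the same comparison, from 0.35 (adjusted p = 0.2) to 0.67 (adjusted p = 0.0014). It removed from the call Itga2b, from 0.66 (adjusted p = 0.0212) to 0.56 (adjusted p = 0.0683), and Itga7, from 0.91 (adjusted p = 0.0336) to 0.88 (adjusted p = 0.0612), again against ACSS2 KO. The signs of the called ACLY KO against WT and DKO1 against WT values of the 17 genes given library by library did not depend on it.

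Smaller calls of the 17 genes turned on 1 library. In ACSS2 KO against WT, the call of Col1a1 was lost without WT replicate 3, ACSS2 KO replicate 2 or ACSS2 KO replicate 4, with an adjusted p of 0.0647 to 0.0901 and log2 fold changes of 0.23 to 0.28. In the same comparison Col7a1 lost its call without ACSS2 KO replicate 1 or 2 (adjusted p = 0.0621 and 0.0521), Itgb3 without ACSS2 KO replicate 4 (0.074), Itgb6 without ACSS2 KO replicate 2 (0.0706) and Lamb1 without ACSS2 KO replicate 4 (0.0509). Itgb2 lost it without any of 10 libraries, with an adjusted p of up to 0.183, so its place among the genes lower after both losses of ACSS2 is not firm. The rise of Lamc3 in ACLY KO was lost without any of 8 libraries, with an adjusted p of up to 0.146. Col6a1 in DKO1 against ACSS2 KO had an adjusted p of 0.0601 without DKO1 replicate 1 and 0.0614 without DKO1 replicate 3. The interaction of Lamb3 was lost without any of 4 libraries, with an adjusted p of up to 0.0595.

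**Figure D5:**
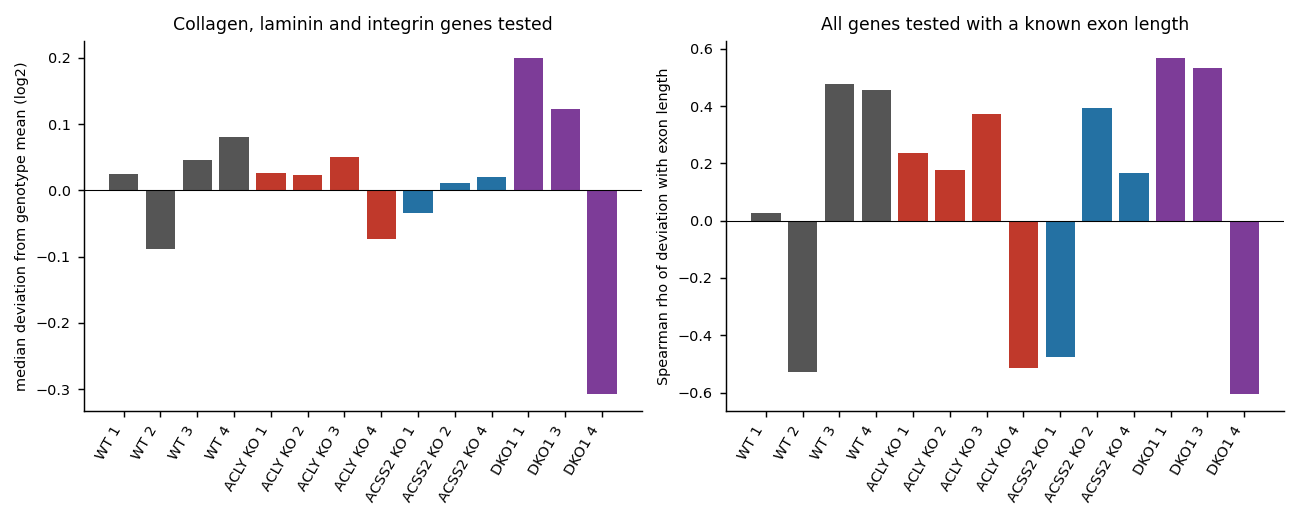
For each of the 14 libraries, a bar gives the median log2 deviation from the genotype mean over the 52 tested collagen, laminin and integrin genes (left) and the Spearman correlation of the deviation with exon length over 12577 genes (right). DKO1 replicate 4 has the lowest median, -0.31, and the most negative correlation, -0.61.

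The genes around this set were read from lists of related proteins, and their counts stand beside the shares of all genes tested. Against WT these were 23.8% higher with 24.7% lower for ACLY KO, 15.1 with 11.0% for ACSS2 KO, and 27.9 with 28.1% for DKO1. Of 17 tested genes of other basement membrane and matrix proteins, 5 were higher in ACLY KO and 6 lower, 1 and 7 in ACSS2 KO, and 3 and 5 in DKO1 against WT. Nid2, a nidogen that ties laminin to type IV collagen, had means of 212, 34.3, 291 and 35.1 in WT, ACLY KO, ACSS2 KO and DKO1, and fell, at -2.59 (adjusted p = 1.1e-07) in ACLY KO and -2.55 (adjusted p = 2.43e-07) in DKO1. As for Lamb1, both genotypes without ACLY were low. Dcn, a proteoglycan that binds collagen fibrils, rose in ACSS2 KO by 2.40 (adjusted p = 1.26e-07), and Ecm1 rose in ACLY KO by 0.9995 (adjusted p = 6.17e-08).

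Of 24 tested genes of collagen synthesis and crosslinking, 7 were higher in ACLY KO and 7 lower, 7 and 5 in ACSS2 KO, and 6 and 6 in DKO1 against WT, so the enzymes did not move one way with the collagen genes. Crtap, a subunit of the prolyl 3-hydroxylase complex, had means of 1299.95, 197, 1111 and 1304 and was low in ACLY KO alone, at -2.72 (adjusted p = 1.51e-10) against WT. P4ha3, a prolyl 4-hydroxylase subunit, was -1.17 (adjusted p = 1.04e-06) in ACLY KO, 0.65 (adjusted p = 0.000898) in ACSS2 KO and -1.69 (adjusted p = 7.43e-08) in DKO1 against WT. Adamts14, a procollagen N-proteinase, fell, at -0.83 (adjusted p = 7.41e-06) in ACLY KO and -1.35 (adjusted p = 1.64e-07) in DKO1.

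Genes of the integrin adhesion complex, which joins integrin tails to actin, had more lower than higher calls in all 3 comparisons with WT. Of 21 tested, 2 were higher in ACLY KO and 8 lower, 1 and 10 in ACSS2 KO, and 1 and 15 in DKO1 against WT. Fermt1, the epithelial kindlin that activates integrins, was -3.16 (adjusted p = 9.09e-07), -2.71 (adjusted p = 2.81e-05) and -3.39 (adjusted p = 9.5e-07) in the same comparisons. Its means were 75.6, 8.003, 11.05 and 6.28 in WT, ACLY KO, ACSS2 KO and DKO1. Fermt1 thus passed the limit for testing mainly through WT, and its direction was largely fixed by that limit. Fermt2 was -0.61 (adjusted p = 3.58e-07) in ACLY KO and -0.64 (adjusted p = 4.65e-07) in DKO1. Parvb, a parvin of the complex, was 0.28 (adjusted p = 0.0143) in ACLY KO, -0.74 (adjusted p = 5.44e-05) in ACSS2 KO and -2.03 (adjusted p = 2.06e-09) in DKO1 against WT. Of 11 other matrix receptors, 2 were higher in ACLY KO and 5 lower, 3 and 1 in ACSS2 KO, and 2 and 5 in DKO1. Ddr2, a receptor tyrosine kinase for fibrillar collagen, was 1.61 (adjusted p = 6.6e-07) in ACLY KO, 1.25 (adjusted p = 4.75e-05) in ACSS2 KO and -0.22 (adjusted p = 0.239) in DKO1 against WT, and thus high in ACLY KO and not in DKO1, as Col1a1 was. Of the syndecans, Sdc2 rose by 0.97 (adjusted p = 1.83e-08) and Sdc1 fell, at -0.77 (adjusted p = 2.85e-07) in ACLY KO. Of 15 matrix proteases and inhibitors, 2 were higher in ACLY KO and 9 lower, 2 and 5 in ACSS2 KO, and 4 and 8 in DKO1. Timp3, a matrix-bound protease inhibitor, fell, at -2.02 (adjusted p = 6.95e-10) in ACLY KO and -2.92 (adjusted p = 1.21e-10) in DKO1, and the plasminogen activators Plau and Plat fell, at -2.61 (adjusted p = 4.65e-10) and -0.85 (adjusted p = 1.7e-07) in DKO1.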

How the data were processed

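Poly(A) RNA-seq of mouse HCC cells was analysed in 14 libraries of 4 genotypes, grouped by the sample labels (4 WT, 4 ACLY KO, 3 ACSS2 KO and 3 DKO1). The authors mapped the reads to GRCm38 (mm10) and normalized them with Illumina differential expression software (given as DESeq2, version 1.0.1), per the labels and the methods, and the counting step and annotation are not given in the sources used here. The deposited signal values are DESeq-normalized counts for 24972 symbols, not whole reads, which is why limma on log values was chosen over a count model. Depth was estimated by taking the most frequent value under 3 as 1 read, and the only error used is the spread among libraries.

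Genes with a mean of at least 10 (12711, of which 52 are collagen, laminin or integrin genes) were tested in R 4.3.3 with limma 3.58.1 and an intensity trend on log2(value + 1), with 1 coefficient per genotype and the Benjamini-Hochberg adjustment over all genes tested. A gene was called at an adjusted p under 0.05. The larger limits were 1.5 in absolute log2 fold change and 0.01 in adjusted p. The interaction and an F test came from the same fit. Exon lengths and coordinates were matched for all 76 genes. Genes given library by library had a mean of at least 100 and a called absolute log2 fold change over 1 in a pairwise comparison. Other tested genes were named with at most a few values, and in each related list the 3 genes with the smallest F test adjusted p were named, with Itgav. Genes named outside that rule are marked in the text. The genes, lists and tests were chosen with earlier results of these data known. The fit was tested on simulated data.

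There were 26 alternatives, which changed the added constant, the filter, the scaling, the spread model or the libraries used, corrected for exon length (per library, by a natural spline of 5 degrees of freedom) or added the replicate number as a block. The numbers did not pair the libraries. A single tested gene is counted in the totals but not reported here by its values.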

Additional observations from a re-analysis of the deposited data

Results flagged for a closer look

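In ACLY KO, replicate 4 stood apart for Col12a1, with 2221 normalized counts against 2803 to 2910 in the other 3 libraries. Dixon's test was run on 34 groups of 4 libraries, 2 genotypes for each of the 17 genes given library by library, and this was the only group it marked, which is no more than the test marks by chance at its 95% level. That library is also the ACLY KO library in which genes with long exons were low, and the part of exon length was not tested.

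The effect of ACSS2 loss in cells without ACLY differed from that in cells with ACLY, by an interaction term in limma, for 22 genes, of which 21 are given. Values are the log2 change from ACLY KO to DKO1 minus that from WT to ACSS2 KO. Among collagens, Col6a2 was at -3.16, Col1a1 at -2.65, Col12a1 at -1.72, Col6a1 at -1.62, Col4a4 at -1.21, Col18a1 at -0.95, Col5a3 at -0.94 and Col16a1 at -0.26. Col22a1 at 2.01, Col7a1 at 0.88, Col6a3 at 0.82 and Col3a1 at 0.76 had the opposite sign. Among laminins, Lama4 was at -2.58 and Lamb1 at -0.65, whereas Lamc3 was at 1.79 and Lamb3 at 0.27. Among integrins, Itga9 was at -2.57, Itgb3 at -1.93, Itgb2 at -0.76 and Itga5 at -0.52, and Itgb4 was at 2.87. Of these, Col5a3 lost its call without DKO1 replicate 4, at an adjusted p of 0.0780. Itgb4 and Col22a1 had means under 10 in 2 genotypes each, and Col5a3 in 1.

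The 2 genes with the most negative values, Col6a2 and Col1a1, were high in ACLY KO alone. In DKO1, Col6a2 was below WT, while Col1a1 overlapped WT, with a mean of 477 against 428. The next 2 genes, Lama4 and Itga9, were high in ACSS2 KO alone. DKO1 is 1 clone derived from ACLY KO cells and ACSS2 KO is 1 clone, so loss of ACSS2 and the choice of a clone cannot be told apart for any of the 22.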

How the results depend on the processing

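Under 26 alternatives, no called value of the 17 genes given library by library changed sign, and of their 74 calls 13 were lost in at least 1 alternative. The counts of genes called at an adjusted p under 0.05 moved by over 1.5 times in the following cases. ACSS2 KO against WT went from 21 to 34 with limma array weights and to 32 without the 4 libraries that stand apart (WT replicate 2, ACLY KO replicate 4, ACSS2 KO replicate 1 and DKO1 replicate 4). The interaction went from 22 to 34 under either of these. The share of all genes called rose too, from 26.05 to 49.5 and 48.1% in ACSS2 KO against WT and from 27.1 to 48.7 and 43.7% for the interaction. In the other direction, ACSS2 KO against WT went from 21 to 12 without ACSS2 KO replicate 2 and to 13 without ACSS2 KO replicate 4. The share of all genes called was then 19.9 and 18.4%. At the larger limits, a filter of at least 10 in every library left 42 of the 52 genes to test and lowered the counts from 16 to 10 in ACLY KO against WT, from 13 to 7 in DKO1 against WT and from 5 to 3 in DKO1 against ACLY KO. That filter removed mostly genes that are low in WT and high in ACLY KO, and took the calls in ACLY KO against WT from 31 higher and 8 lower to 24 and 6.

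With 1 library left out in turn, the counts ranged from 34 to 44 in ACLY KO against WT, 12 to 30 in ACSS2 KO against WT, 38 to 44 in DKO1 against WT, 17 to 21 in DKO1 against ACLY KO, 33 to 38 in DKO1 against ACSS2 KO, 17 to 24 for the interaction and 44 to 49 for the F test. At the larger limits they ranged from 15 to 16, 2 to 2, 12 to 16, 5 to 6 and 15 to 17 in the 5 pairwise comparisons in that order.

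With the replicate number as a block, the counts in the same order were 38, 16, 41, 18, 35, 19 and 45, against 39, 21, 40, 19, 38, 22 and 45 without it. The numbers did not pair the libraries, since correlations of same-numbered libraries ranged from -0.43 to 0.45. Depth is only an estimate here, so genes near 10 normalized counts carry counting error of unknown size.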

Other observations

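The cell state markers also differed between the genotypes, and did not move as a group. Cdh1, the epithelial cadherin, had a mean of 547 normalized counts in WT, against 58.7 for ACLY KO, 191 for ACSS2 KO and 65.2 for DKO1. Hnf4a, a transcription factor that maintains hepatocyte identity, had means of 172, 28.7, 39.8 and 22.4 in the same order. The 9 mesenchymal and epithelial state genes, led by vimentin and fibronectin, summed to 145693 to 150053 in WT, 123273 to 131557 in ACLY KO, 112833 to 123425 in ACSS2 KO and 148039 to 149699 in DKO1, and vimentin and fibronectin made up most of that sum. Within the list, Zeb2 rose by 0.67 (adjusted p = 0.00914) in ACLY KO and 0.78 (adjusted p = 0.00546) in DKO1 against WT, and Snai2 by 0.79 (adjusted p = 0.000128) and 1.38 (adjusted p = 1.61e-06), by limma. Twist1 fell, at -2.44 (adjusted p = 5.5e-09) and -2.33 (adjusted p = 1.76e-08), and so did Snai1, at -1.43 (adjusted p = 0.00293) and -0.90 (adjusted p = 0.0472). Snai1 was low, with means of 22.3, 7.48, 33.5 and 11.5 in WT, ACLY KO, ACSS2 KO and DKO1. It passed the limit for testing mainly through the genotypes with ACLY, so its direction was partly set by that limit. Cdh2 was -0.52 (adjusted p = 0.000106) in ACLY KO, -0.55 (adjusted p = 0.000332) in ACSS2 KO and -0.50 (adjusted p = 0.000239) in DKO1 against WT. Zeb1 was called in none of these comparisons. These values are given without an explanation.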
